A study of Homo sapiens with 8 samples.

Results

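A set of 10 genes that mark simple epithelium was followed across 8 RNA-seq libraries of ovarian cancer cells. They were taken by name as the keratins KRT7, KRT8, KRT18 and KRT19, the claudins CLDN3, CLDN4, CLDN6 and CLDN7, the adhesion molecule EPCAM and the splicing factor ESRP1. All 10 were found among the 20339 genes of the count table. OVCAR3 and COV318 are established lines of human ovarian carcinoma. OVCAR3-MGPKO cells are clones isolated after CRISPR-Cas9 cutting of MGP, the gene of the secreted protein matrix Gla protein, and OVCAR3-CTR is their control. COV318-MGP cells received an MGP cDNA by lentivirus and COV318-CTR cells the empty vector, both with puromycin selection, and the virus was packaged in HEK293T cells. Each of the 4 populations was sequenced as adherent cells in serum (bulk) and as second-generation spheres grown without serum on a non-adherent surface (OCSC, the culture used to enrich ovarian cancer stem cells). The labels give passage 4 for OVCAR3 and passage 18 for COV318, and describe every library as epithelial cells from ascites.

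Each condition has 1 library, with 12294591 to 37393919 counts on genes. No replicate error could be measured, so no p-value is given, and the 95% intervals below cover counting error only. MGP itself had 40393 and 28694 counts in the bulk and OCSC libraries of COV318-MGP and at most 2 counts in each of the other 6 libraries. The OVCAR3-CTR libraries had 0 and 1 counts of MGP, so the RNA of these libraries does not check the knock-out. The paper reports MGP protein in OVCAR3, and its loss after the knock-out by RT-qPCR, western blot and immunofluorescence. With 1 library a side, an effect of MGP and any other difference between the 2 populations of a line cannot be told apart.

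Keratins of simple epithelium form filaments from obligate pairs of a type II chain (KRT7, KRT8) and a type I chain (KRT18, KRT19). KRT8 with KRT18 is the founding pair of simple epithelia, and KRT7 and KRT19 are added in ductal and Müllerian epithelium, which includes most ovarian carcinomas. Claudins are the 4-pass membrane proteins that seal tight junctions, CLDN3 and CLDN4 are well known for high expression in ovarian carcinoma, and CLDN6 is an embryonic epithelial claudin. EPCAM is a surface adhesion molecule of epithelia that binds CLDN7, and ESRP1 directs the epithelial pattern of splicing.

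Positions are given in hg38 with GENCODE 44 annotation. KRT7 (ENSG00000135480.17) lies on chromosome 12 from 52232520 to 52252186 and, farther along, KRT8 (ENSG00000170421.13, 52897187 to 52949954, minus strand) and KRT18 (ENSG00000111057.11, 52948871 to 52952906, plus strand) stand head to head. Their annotated exons share 525 bases on opposite strands, which are 7.63% of the exon bases of KRT8 and 17.1% of those of KRT18. KRT19 (ENSG00000171345.13) lies on chromosome 17 from 41523617 to 41528308 and CLDN7 (ENSG00000181885.18) on the same chromosome from 7259903 to 7263983. CLDN3 (ENSG00000165215.6, 73768997 to 73770270) and CLDN4 (ENSG00000189143.10, 73799542 to 73832690) are close together on chromosome 7. CLDN6 (ENSG00000184697.7) lies on chromosome 16 from 3014712 to 3020071 and EPCAM (ENSG00000119888.11) on chromosome 2 from 47345158 to 47387601. ESRP1 is ENSG00000104413.18. Of the exon bases of CLDN7, 10.8% are shared with another gene on the same strand (ENSG00000262302). Whether reads were counted by strand is not given in the sources used here, so reads from overlapping exons cannot be assigned with certainty.

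RefSeq promoter windows (GRCh38.p14, 250 bases before to 50 after a start) were at hand for 5 of the 10 genes, namely CLDN3, CLDN4, CLDN6, CLDN7 and KRT8. KRT7, KRT18, KRT19, EPCAM and ESRP1 had no entry in the table. The windows of CLDN3, CLDN4 and CLDN7 are shown because these 3 claudins had higher levels in every OVCAR3 library than in any COV318 library, and because these windows begin from the starts of the GENCODE canonical transcripts. CLDN6 also stood in that order but was near the floor in most libraries, and its window is not shown. The windows are read 5′ to 3′ on the strand of the gene. Capitals mark GGGCGG (the GC box bound by SP1) and CACCTG (an E-box bound by ZEB and Snail repressors), each on either strand, so that the letters also appear as CCGCCC and CAGGTG.
CLDN3 chr7:73770221-73770520 (minus strand): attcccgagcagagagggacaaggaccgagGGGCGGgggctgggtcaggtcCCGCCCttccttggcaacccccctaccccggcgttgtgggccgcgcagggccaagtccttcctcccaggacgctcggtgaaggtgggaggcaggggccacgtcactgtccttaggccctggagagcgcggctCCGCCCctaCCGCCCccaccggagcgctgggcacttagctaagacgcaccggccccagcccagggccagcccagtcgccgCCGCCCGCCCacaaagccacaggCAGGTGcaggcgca
CLDN4 chr7:73830746-73831045 (plus strand): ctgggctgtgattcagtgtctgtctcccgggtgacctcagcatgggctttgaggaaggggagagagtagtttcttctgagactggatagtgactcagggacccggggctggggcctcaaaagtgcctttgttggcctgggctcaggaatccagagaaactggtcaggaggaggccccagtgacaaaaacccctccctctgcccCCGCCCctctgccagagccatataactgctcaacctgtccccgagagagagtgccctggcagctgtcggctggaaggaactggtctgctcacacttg
CLDN7 chr17:7262429-7262728 (minus strand): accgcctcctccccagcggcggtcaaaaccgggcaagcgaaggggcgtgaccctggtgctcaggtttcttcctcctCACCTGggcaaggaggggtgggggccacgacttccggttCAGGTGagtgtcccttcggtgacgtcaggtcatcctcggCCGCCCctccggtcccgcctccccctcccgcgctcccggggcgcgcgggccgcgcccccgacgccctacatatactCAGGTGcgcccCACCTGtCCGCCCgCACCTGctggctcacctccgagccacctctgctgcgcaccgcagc
The CLDN3 window held 6 GC boxes, the CLDN7 window 2 and the CLDN4 window 1. GGGCGG was present in 15785 of all 35114 windows. CACCTG occurred 5 times in the CLDN7 window, 1 time in the CLDN3 window and 0 times in the CLDN4 window, and 20.6% of all windows held it. The windows also differed in CpG, with 30 in CLDN7, 24 in CLDN3 and 5 in CLDN4 against a median of 14 over all windows. None of the 3 held the grainyhead motif AACCGGTT, which 0.134% of all windows held. A second CLDN7 window, not shown, has its start 735 bases from the canonical one and held 0 GC boxes, 0 CACCTG and 10 CpG. All of these are matches of letters and do not show binding.

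Levels are given as normalized counts, which are counts divided by the size factor of the library. A difference between 2 libraries is given as a fold of normalized counts or as log2FC, the log2 ratio of normalized counts plus 1, and a gene is called higher or lower where the log2FC is at least 1 in size.

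KRT7 was high in OVCAR3 and missing from COV318-MGP. Its normalized counts in OVCAR3 were 43143 in CTR bulk, 39320 in MGPKO bulk, 17648 in CTR OCSC and 16803 in MGPKO OCSC. In COV318 they were 10491 in CTR bulk and 912 in CTR OCSC, and in both COV318-MGP libraries KRT7 had 0 counts. The 2 bulk OVCAR3 libraries stood highest and the order of the populations was the same in both cultures.

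KRT8, the partner of KRT18, was abundant in OVCAR3 and scarce in COV318. In OVCAR3 its normalized counts were 41843 (CTR bulk), 31128 (MGPKO bulk), 94574 (CTR OCSC) and 78810 (MGPKO OCSC). In COV318 they were 645 (CTR bulk), 306 (MGP bulk), 158 (CTR OCSC) and 1407 (MGP OCSC). Every OVCAR3 value was above every COV318 value. The highest COV318 value came from the MGP spheres and the lowest from the control spheres.

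KRT18 was the member that kept the highest level in COV318. Its normalized counts were 34118, 20351, 75306 and 70410 in OVCAR3-CTR bulk, OVCAR3-MGPKO bulk, OVCAR3-CTR OCSC and OVCAR3-MGPKO OCSC. In COV318 they were 19421 in CTR bulk, 1415 in MGP bulk, 3561 in CTR OCSC and 6886 in MGP OCSC. The COV318-CTR bulk library came close to the lowest OVCAR3 library.

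KRT19, a type I keratin without the tail domain, followed the pattern of KRT7 in COV318. Its normalized counts were 14775, 22313, 46976 and 21703 in the 4 OVCAR3 libraries, in the same order. In COV318 they were 9484 in CTR bulk and 2553 in CTR OCSC, while KRT19 had 1 count in MGP bulk and 0 in MGP OCSC. OVCAR3-CTR OCSC stood apart from the other OVCAR3 libraries by its high value.

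Among the claudins, CLDN4 and CLDN7 were abundant in OVCAR3 and CLDN3 was moderate. CLDN4 had normalized counts of 4191, 4658, 6952 and 7224 in OVCAR3-CTR bulk, MGPKO bulk, CTR OCSC and MGPKO OCSC, and CLDN7 had 2359, 3992, 2765 and 3656. CLDN3 had 304, 316, 608 and 741. In COV318-CTR, CLDN4 had 13.5 in bulk and 49.0 in OCSC, CLDN7 had 89.9 and 278, and CLDN3 had 35.0 and 71.3. In COV318-MGP, CLDN4 had 1.10 and 14.3, CLDN7 had 20.9 and 14.3, and CLDN3 had 0 counts in both libraries. For these 3 claudins no COV318 library reached the lowest OVCAR3 library.

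CLDN6 was near the limit of detection except in OVCAR3-MGPKO. It had 55 and 70 counts in OVCAR3-MGPKO bulk and OCSC, against 4 and 11 in OVCAR3-CTR. In COV318 it had 1 and 4 counts in CTR and MGP bulk and 0 and 3 counts in CTR and MGP OCSC. A count of at most 3 is treated here as the floor, which is 0.0802 to 0.244 CPM (reads of the gene relative to all gene reads of its library, set to an equal total) in these libraries.

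EPCAM and ESRP1 stood at 3 levels, highest in OVCAR3, lower in COV318-CTR and lowest in COV318-MGP. EPCAM had normalized counts of 4950, 4067, 5591 and 4899 in the 4 OVCAR3 libraries, 1443 and 964 in COV318-CTR bulk and OCSC, and 25.8 and 31.5 in COV318-MGP bulk and OCSC. ESRP1 had 5664, 2365, 4055 and 2473 in OVCAR3, 287 and 453 in COV318-CTR, and 4.40 and 0 in COV318-MGP. How many of all genes show this 3-level order was not counted, so it cannot be called particular to EPCAM and ESRP1. For each of the 10 genes every OVCAR3 library was above every COV318 library, which held for 16.6% of all genes in the table. The margin was small for KRT18 and for CLDN6.

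**Figure D1:**
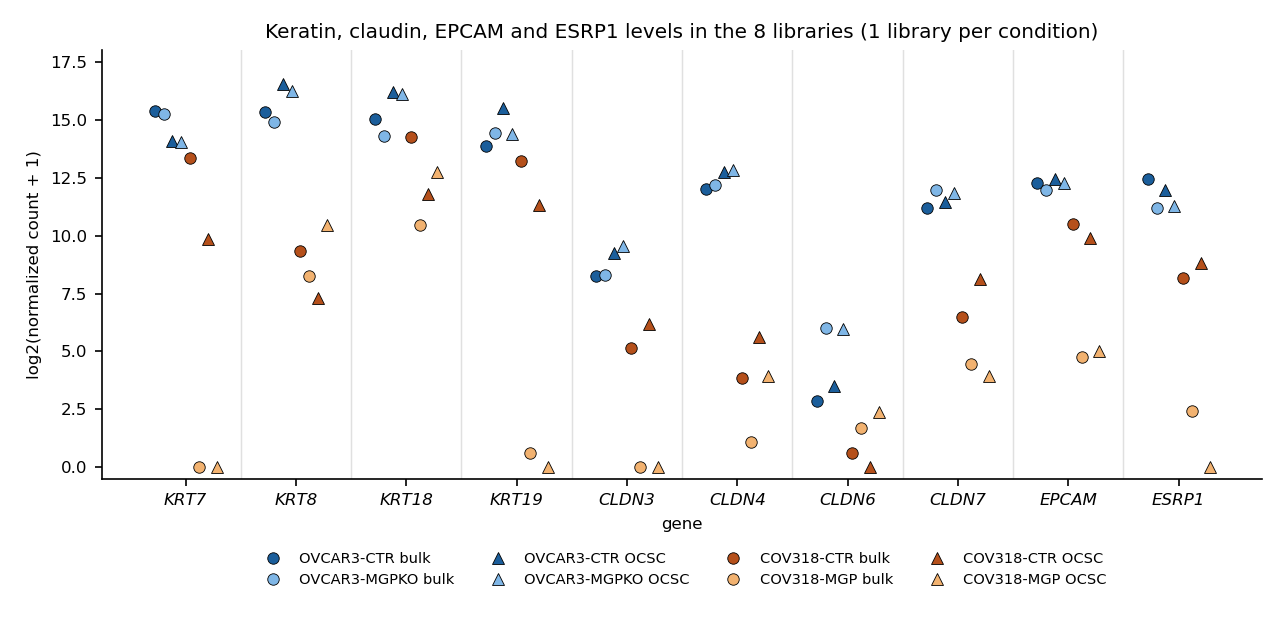
The vertical axis is log2(normalized count + 1), with circles for bulk and triangles for OCSC and 1 point for each of the 8 libraries of each gene. The OVCAR3 points (blue) lie above the COV318 points (orange) for all 10 genes, and COV318-MGP lies at 0 in both cultures for KRT7 and CLDN3.

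Per length, measured as normalized counts per kb of annotated exon, the keratins led in every OVCAR3 library. In OVCAR3-CTR bulk the order was KRT18 at 11117, KRT7 at 10788, KRT19 at 6325, KRT8 at 6081, EPCAM at 2037, ESRP1 at 1162, CLDN7 at 947 and CLDN4 at 892, with CLDN3 and CLDN6 last. Per kb of the canonical transcript, KRT7 came before KRT18 there (26550 against 24146), and KRT8 came before KRT19 (23455 against 10630). In COV318-CTR bulk KRT18 led at 6328 per kb of exon, followed by KRT19 at 4060 and KRT7 at 2623, with KRT8 at 93.7. In COV318-MGP only KRT18 (461 in bulk, 2244 in OCSC), KRT8 (44.4 and 205) and EPCAM (10.6 and 13.0) exceeded 10 per kb in both cultures. Without replicates there is no spread against which neighbours in these orders could be compared.

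The make-up of the keratins changed with the line and the population. Of the type II keratins measured (16 genes, per kb of exon), KRT7 made up 55.0% and KRT8 31.0% in OVCAR3-CTR bulk, while KRT8 made up 59.1% in OVCAR3-CTR OCSC. KRT7 made up 89.9% of them in COV318-CTR bulk and 78.9% in COV318-CTR OCSC. In the COV318-MGP libraries, KRT8 made up 91.7% (bulk) and 90.0% (OCSC). Of the type I keratins (8 genes), KRT18 made up 58.8% and KRT19 37.7% in COV318-CTR bulk, while KRT18 made up 80.9% and 93.2% in the bulk and OCSC libraries of COV318-MGP.

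The balance of the KRT8 and KRT18 pair followed the same division. For each KRT8 count there were 0.815, 0.654, 0.796 and 0.893 KRT18 counts in the 4 OVCAR3 libraries. The ratio was 30.1 in COV318-CTR bulk, 22.6 in COV318-CTR OCSC, and 4.63 (bulk) and 4.89 (OCSC) in COV318-MGP. COV318-CTR cells thus held KRT18 message with little KRT8 message. Pseudogenes named for KRT8, KRT18 or KRT19 (2 in the table) summed to 1 to 86 counts per library.

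**Figure D2:**
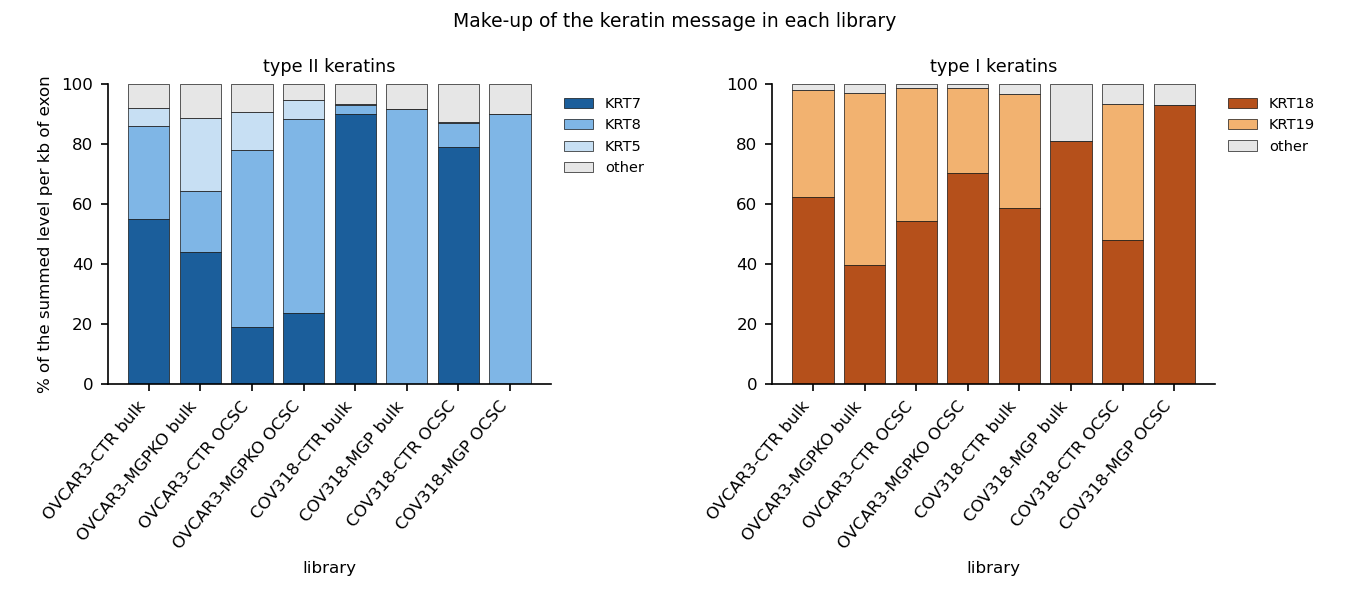
Bars give the percent of the summed type II (left) or type I (right) keratin level per kb of exon in each library, split by gene. KRT7 fills 89.9% of the type II bar of COV318-CTR bulk and 0% of both COV318-MGP bars.

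The claudins also differed in kind between the lines. Per kb of exon, the 4 claudins of the set made up 71.8% to 86.7% of the summed level of the 14 claudins measured in OVCAR3, with CLDN7 first in bulk (32.7% in CTR, 48.3% in MGPKO) and CLDN4 first in OCSC (39.4% and 35.7%). Per kb of the canonical transcript CLDN4 came first in bulk too (46.3% and 43.8%). They made up 0.922% and 5.41% in COV318-CTR bulk and OCSC and 3.37% and 5.24% in COV318-MGP. COV318-CTR held CLDN16, the claudin of magnesium reabsorption in the kidney, at 43.2% in bulk and 54.9% in OCSC, and CLDN1, a widespread barrier claudin, at 29.7% and 21.1%. In COV318-MGP the leading claudins were CLDN12 (65.2% and 64.2%) and CLDN15 (27.3% and 24.2%), both singled out after their values were seen. CLDN12 itself had similar normalized counts throughout (677 in OVCAR3-CTR bulk, 1079 in COV318-CTR bulk and 1283 in COV318-MGP bulk), and the summed claudin level per kb was 293 and 215 in COV318-MGP against 7240 and 3292 in COV318-CTR.

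**Figure D3:**
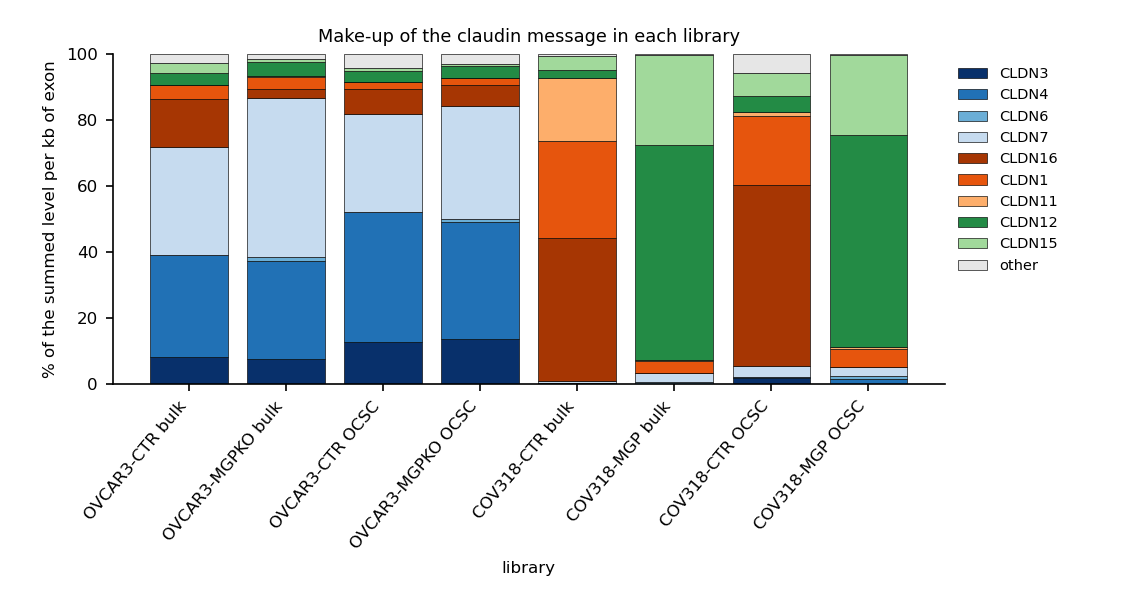
Bars give the percent of the summed level per kb of exon of 14 claudins in each library, split by gene. CLDN3, CLDN4, CLDN6 and CLDN7 (blue) fill most of the OVCAR3 bars, CLDN16 and CLDN1 (brown and orange) most of the COV318-CTR bars, and CLDN12 and CLDN15 (green) most of the COV318-MGP bars.

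The label of epithelial cells was checked against 10 epithelial markers, 8 of which belong to the set (CDH1 and MUC1 are the others). All 10 were above the floor in COV318-CTR, and 7 of 10 in each COV318-MGP library. KRT7 was at 0 in both COV318-MGP libraries, and KRT19 and ESRP1 were also at 0 in COV318-MGP OCSC. The summed normalized counts of these markers were 42312 and 9604 in COV318-CTR bulk and OCSC and 2017 and 8513 in COV318-MGP, with KRT18 and KRT8 holding most of the last sum. COV318-MGP thus lacked several markers that its control carries. Between the COV318 populations 24.1% of all genes were higher and 25.7% lower in bulk, and the markers of other cell types given further on differed as well. Whether both populations still represent the same line was not tested, and every fold below compares them as labelled.

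Added MGP in COV318 was compared first, to ask how the epithelial genes differ between COV318-MGP and COV318-CTR. In bulk 9 of the 10 genes were lower, where 25.7% of all genes tested were lower, and 1 was higher, where 24.1% of all genes were higher. The median log2FC of the 10 was -4.47, or -4.09 with genes at 0 counts set to their bound, against -0.01 over all genes. KRT7 was at least 6358-fold lower, on 0 counts against 19478. KRT19, with 1 count left of 17608, was 17244-fold lower (log2 interval -19.38 to -11.60). That 1 count lies within the floor, so the fold of KRT19 and the bound of KRT7 cannot be ranked. ESRP1 was 65.2-fold lower (log2FC -5.74, interval -7.25 to -5.04) and EPCAM 55.8-fold lower (log2FC -5.75, interval -6.25 to -5.39). KRT18 was 13.7-fold lower (interval -3.84 to -3.72) and KRT8 2.11-fold lower (interval -1.22 to -0.93), close to the threshold. CLDN3 was at least 21.2-fold lower, CLDN4 12.2-fold lower on 2 and 25 counts (interval -6.74 to -1.61) and CLDN7 4.30-fold lower. The gene called higher was CLDN6, on 4 against 1 count, and its interval included no change (-1.31 to 7.65). In bulk RNA, fewer cells that express a gene and less of its RNA per cell cannot be told apart.

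In OCSC the same comparison gave 7 genes lower, where 27.3% of all genes were lower, and 2 higher, where 26.7% were higher. The median log2FC of the 10 genes was -4.54 against 0.00 over all genes, and -4.19 over the 9 genes above the floor with bounds. KRT19 was at least 594-fold lower, KRT7 at least 212-fold, ESRP1 at least 106-fold and CLDN3 at least 16.6-fold. EPCAM was 30.6-fold lower (log2FC -4.89, interval -5.62 to -4.33), CLDN7 19.4-fold lower and CLDN4 3.43-fold lower. KRT8 was 8.93-fold higher (log2FC 3.15, interval 2.87 to 3.46) and KRT18 1.93-fold higher (log2FC 0.95, interval 0.88 to 1.02), just under the threshold. The other gene called higher was CLDN6, on 3 and 0 counts, both within the floor. KRT7, KRT19, CLDN3, CLDN4, CLDN7, EPCAM and ESRP1 were therefore lower in both cultures, whereas KRT8 was lower in bulk and higher in OCSC. The bulk value of KRT8 kept its sign but lay under the threshold with TMM scaling (log2FC -0.97) and with CPM (-0.75).

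The other genes of the epithelial programme were read from lists of known members, which were chosen with earlier results of these data known. Their shares stand against the same 25.7% (bulk) and 27.3% (OCSC) of all genes lower and 24.1% and 26.7% higher in COV318-MGP. Of the 10 other claudins measured, 7 were lower in bulk and 8 in OCSC. CLDN16 had 10409 normalized counts against 0 in bulk (at least 6308-fold lower) and 6016 against 0 in OCSC (at least 1401-fold lower). CLDN1 was 197-fold and 60.6-fold lower. CLDN11, the claudin of myelin and of Sertoli cells, was 2717-fold lower in bulk (0.509 against 1383 normalized counts per kb of exon). In OCSC it was 26.0-fold lower (1.33 against 34.4), and both CLDN11 folds rest on few counts in COV318-MGP. The lower claudin message in COV318-MGP therefore reached beyond the 4 claudins of the set, and CLDN16 and CLDN1 carried most of the claudin level of COV318-CTR.

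Of the 14 other type II keratins 6 were lower and 1 higher in bulk, with 8 of 14 at or under the floor in both libraries. In OCSC 5 were lower and 3 higher, with 9 of 14 at or under the floor in both libraries. Above the floor in at least 1 library were 5 lower and 1 higher in bulk, and 3 lower and 2 higher in OCSC. KRT80, a type II keratin of differentiating epithelia, was lower on 1 count against 1410 in bulk (1381-fold, log2 interval -15.74 to -7.95) and on 1 count against 78 in OCSC (81.0-fold, interval -11.66 to -3.82). Of the 6 other type I keratins 4 were lower in bulk and 3 in OCSC (3 and 2 of them above the floor in at least 1 library). KRT17, a keratin of basal and injured epithelia, was 213-fold lower in bulk, on few counts in COV318-MGP (0.918 against 195 normalized counts per kb of exon). Its log2FC in OCSC was -0.85. KRT10 had log2FC values of -0.62 and 0.15. Among 10 other intermediate filament genes the direction was the opposite, with 7 higher in each culture, where 24.1% and 26.7% of all genes were. Lower were 1 in bulk and 3 in OCSC. In OCSC 6 of those higher and 2 of those lower were above the floor in at least 1 library. The neurofilament chains NEFL (at least 873-fold and 275-fold higher) and NEFM (at least 303-fold and 157-fold higher) had 0 counts in COV318-CTR and 1410 and 490 normalized counts in COV318-MGP bulk. VIM, the mesenchymal filament vimentin, was abundant in both populations, with a log2FC of 0.21 in bulk, and 5.23-fold higher in OCSC.

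Fewer of the junction partners passed the threshold. Of 14 tight junction partners 5 were lower and 1 higher in bulk, and 7 were lower in OCSC. TJP3, a scaffold that binds claudin tails, was 18.0-fold and 13.5-fold lower, and PARD6B, a polarity protein, 12.5-fold and 14.4-fold lower. F11R, the junctional adhesion molecule JAM-A, was 4.96-fold and 4.17-fold lower but still at 2448 normalized counts in COV318-MGP bulk. Of 11 adherens junction and desmosome genes 5 were lower and 1 higher in bulk. In OCSC 2 were lower and 1 higher, and the share lower was under that of all genes. The gene called higher in OCSC was at or under the floor in both libraries. The keratin-binding plakin PPL was 1755-fold and 231-fold lower. DSP, the plakin that anchors keratin at desmosomes, was 2.64-fold lower in bulk and had a log2FC of -0.20 in OCSC, and JUP and PKP2 were 6.18-fold and 4.88-fold lower in bulk with log2FC values of -0.84 and -0.93 in OCSC.

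Of 16 epithelial surface and trafficking genes 11 were lower and 2 higher in each culture. In OCSC 10 of those lower and 1 of those higher were above the floor in at least 1 library. ESRP2, the paralogue of ESRP1, was 51.0-fold lower in bulk and, on 2 counts against 404, 210-fold lower in OCSC (log2 interval -10.76 to -5.85), so that both ESRP genes were lower together. AP1M2, a sorting adaptor of polarized cells, had 3 counts against 2040 in bulk (666-fold lower, log2 interval -11.66 to -7.83) and was 38.8-fold lower in OCSC. SPINT1 (32.5-fold and 38.2-fold) and SPINT2 (7.85-fold and 7.02-fold), inhibitors of the epithelial protease matriptase, were lower as well.

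Of 10 epithelial transcription factors 6 were lower and 4 higher in bulk, and 7 were lower and 2 higher in OCSC. The 4 higher in bulk and the 2 higher in OCSC were above the floor in at least 1 library. Genes of this list thus differed in both directions, and EHF and ELF3, given below, were among those lower. Of the 7 lower in OCSC, 5 were above the floor in at least 1 library. EHF had 1 count against 1007 in bulk (986-fold lower, log2 interval -15.25 to -7.46) and 0 against 955 in OCSC (at least 330-fold lower). ELF3 was 61.1-fold and 8.62-fold lower. GRHL2, an activator of epithelial junction genes that was singled out after its values were seen, had 1814 to 4550 counts in the OVCAR3 libraries and 1 to 9 counts in all 4 COV318 libraries, COV318-CTR included. Of 8 repressors of epithelial genes 5 were higher and 1 lower in bulk, and 5 were higher and 0 lower in OCSC. ZEB1 had 0 or 1 count in each OVCAR3 library and normalized counts of 455 and 603 in COV318-CTR and 796 and 1099 in COV318-MGP, where its log2FC values were 0.81 and 0.86. ZEB2 was 5.25-fold and 10.5-fold higher in COV318-MGP, TCF4 5.07-fold higher in bulk with a log2FC of 4.21 in OCSC, and SNAI2, with 608 counts against 0 in bulk, at least 207-fold higher. In OCSC SNAI2 had 110 counts against 1 (106-fold, log2 interval 4.22 to 12.04).

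Markers of other cell types moved between the COV318 populations too. Their counts stand against 25.7% (bulk) and 27.3% (OCSC) of all genes lower and 24.1% and 26.7% higher. Of 8 mesothelial markers 6 were lower in bulk and 7 in OCSC, and their sum was 10828 and 7607 normalized counts in COV318-CTR bulk and OCSC against 42.3 and 34.4 in COV318-MGP, with MSLN at 0 in COV318-MGP bulk and ITLN1, HP and BNC1 at 0 in OCSC. All 4 endothelial markers were lower in both cultures (sums of 1073 and 1263 against 20.3 and 20.0). Of 9 fibroblast markers 1 was higher and 4 lower in bulk, and 4 were higher and 2 lower in OCSC, with sums of 5806 and 603 in COV318-CTR and 700 and 1094 in COV318-MGP and THY1 at 0 in both COV318-MGP libraries. Of 4 leukocyte markers 2 were higher in each culture (sums of 63.2 and 109 in COV318-MGP, and 40.1 or less in COV318-CTR). Of 7 markers of the HEK293 lineage, the parent of the HEK293T cells that packaged the virus, 4 were higher and 2 lower in bulk and 5 higher and 2 lower in OCSC. NEFL and NEFM were among those higher, and NEFL, NEFM, NEFH and INA of this list were also counted among the other intermediate filaments above. DPPA4 had 2 counts against 19621 in bulk (9608-fold lower, log2 interval -16.28 to -11.38) and 0 against 3614 in OCSC (at least 1251-fold lower). The part of any of these in the differences of the epithelial genes was not tested.

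Between OVCAR3-MGPKO and OVCAR3-CTR 1 of the 10 genes was called higher and 1 lower in each culture. In bulk 8 of the 10 genes stayed under the threshold, CLDN6 was higher and ESRP1 lower, against 15.7% of all genes higher and 10.3% lower. CLDN6 was 10.2-fold higher in OVCAR3-MGPKO (log2FC 3.16, interval 1.92 to 5.28) and ESRP1 2.40-fold lower (log2FC -1.26, interval -1.34 to -1.18). In OCSC CLDN6 was again higher, by 5.96-fold (log2FC 2.46, interval 1.65 to 3.64), and KRT19 was 2.16-fold lower (log2FC -1.11, interval -1.14 to -1.09), against 9.16% of all genes higher and 5.81% lower. ESRP1 was 1.64-fold lower in OCSC, under the threshold. KRT19 in bulk was 1.51-fold higher, so that its direction differed between the cultures. KRT7, KRT8, CLDN3, CLDN4 and EPCAM stayed within 1.34-fold in both cultures. The median log2FC of the 10 genes was -0.04 in bulk and -0.08 in OCSC.

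The other epithelial lists were read in the same way in OVCAR3. All list counts in this paragraph stand against 15.7% of all genes higher and 10.3% lower in bulk. In OCSC these shares were 9.16% and 5.81%. Of the 14 other type II keratins 8 were higher and 1 lower in OVCAR3-MGPKO bulk, and 1 was higher and 4 lower in OCSC. KRT5, the type II keratin of basal cells, was 4.68-fold higher in bulk (22673 against 4843 normalized counts) and 2.65-fold lower in OCSC (4599 against 12200). Of the 10 other claudins 1 was higher and 4 lower in bulk and 0 passed in OCSC. Of the 4 lower, 3 were above the floor in at least 1 library. CLDN16 was 4.89-fold lower in bulk with a log2FC of 0.01 in OCSC. Of 16 epithelial surface and trafficking genes 2 were higher and 0 lower in each culture, while their summed normalized counts were 52778 and 68935 in OVCAR3-MGPKO bulk and OCSC against 80180 and 107685 in OVCAR3-CTR. SPINT2, the most abundant of them, had log2FC values of -0.96 and -0.95. Of 11 adherens junction and desmosome genes 1 was lower in bulk and 2 in OCSC, among them PPL (3.04-fold and 2.02-fold lower). Of 8 repressors 1 was higher and 1 lower in bulk and 1 higher in OCSC, and ZEB1 and SNAI2 stayed at 0 or 1 count. The repressor called lower in bulk was at or under the floor in both libraries. VIM was 3.05-fold higher in bulk (108 against 35.5 normalized counts) and 8.39-fold higher in OCSC (2499 against 298). Of 9 fibroblast markers 5 were higher in each culture, with sums of 461 and 609 in OVCAR3-MGPKO against 221 and 454 in OVCAR3-CTR. In OCSC only 2 of the 5 were above the floor in at least 1 library. The part of these markers in the values above was not tested.

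**Figure D4:**
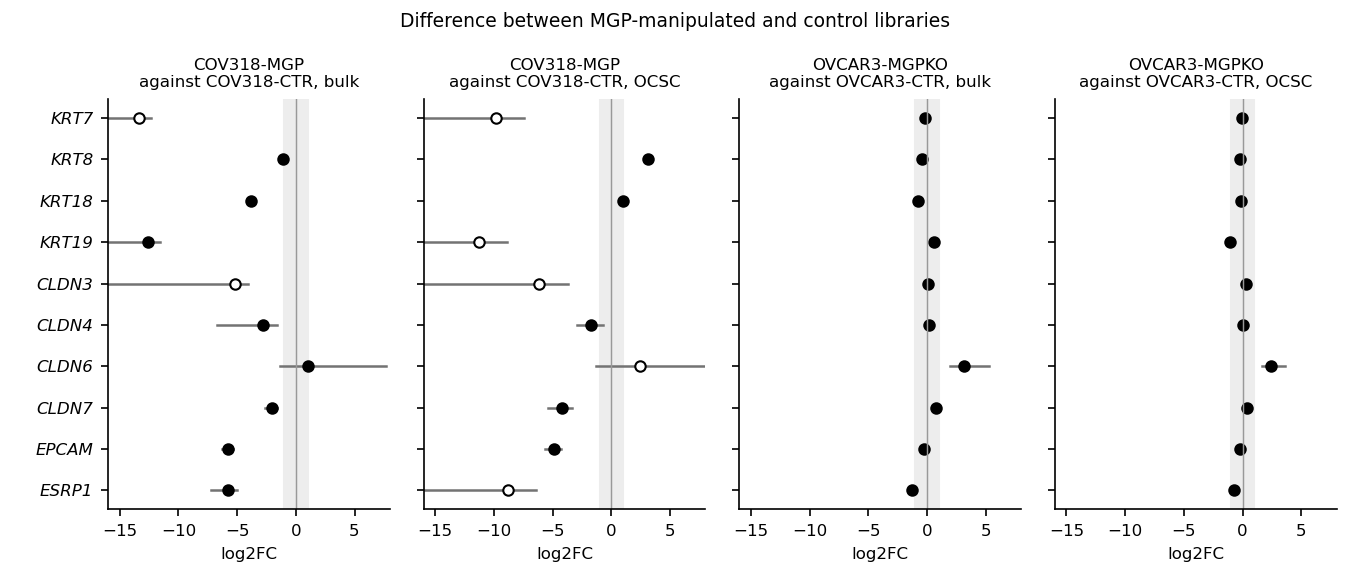
Points give the log2FC of each gene in the MGP-manipulated library against its control, lines the 95% counting interval of the ratio (cut at the frame), open circles a gene with 0 counts in 1 of the 2 libraries, and grey the range under the threshold. In COV318 7 genes lie left of the grey range in both cultures, and KRT8 lies at -1.07 in bulk and 3.15 in OCSC.

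The culture comparison asked how spheres differ from adherent cells within each population. Per the paper's methods the sphere medium also held B27 supplement, EGF and FGF2, and cells were seeded at low density. Surface, serum, medium, growth factors and density changed together, so their parts cannot be told apart. In OVCAR3-CTR 3 genes were higher in OCSC (13.2% of all genes were) and 1 was lower (15.0% of all genes). KRT19 was 3.18-fold higher (log2FC 1.67, interval 1.64 to 1.70), KRT8 2.26-fold and KRT18 2.21-fold higher, and KRT7 was 2.44-fold lower. CLDN3 fell just short of the threshold (interval 0.77 to 1.24). EPCAM was 1.13-fold higher and CLDN7 1.17-fold higher.

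In OVCAR3-MGPKO KRT18 was 3.46-fold, KRT8 2.53-fold and CLDN3 2.35-fold higher in OCSC, and KRT7 was 2.34-fold lower, with 8.06% of all genes higher and 11.7% lower. KRT19 stayed level there, at a log2FC of -0.04 (interval -0.07 to -0.01). The shift from KRT7 to KRT8 and KRT18 was thus present in both OVCAR3 populations, and the gain of KRT19 in the control. KRT8 counts per KRT7 count were 0.970 and 0.792 in the bulk libraries and 5.36 and 4.69 in the OCSC libraries of CTR and MGPKO.

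In COV318-CTR all 4 keratins were lower in OCSC and 3 claudins were higher. KRT7 was 11.5-fold lower (log2FC -3.52, interval -3.64 to -3.41), KRT18 5.45-fold, KRT8 4.09-fold and KRT19 3.71-fold. CLDN4 was 3.64-fold higher (25 and 33 counts, interval 1.07 to 2.68), CLDN7 3.09-fold and CLDN3 2.04-fold, from the low levels given above. Of all genes 10.2% were lower and 12.1% higher. EPCAM (log2FC -0.58) and ESRP1 (0.66) were under the threshold.

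In COV318-MGP KRT18 was 4.87-fold higher (log2FC 2.28, interval 2.21 to 2.35) and KRT8 4.60-fold higher in OCSC (log2FC 2.20, interval 2.05 to 2.35). CLDN4 was called higher on 10 and 2 counts (log2FC 2.87, interval 1.47 to 6.93) and ESRP1 lower on 0 and 8 counts, with an interval that included no change. Of all genes 10.7% were higher and 9.99% lower. KRT7 and CLDN3 had 0 counts in both libraries, and KRT19 1 and 0. KRT8 and KRT18 therefore moved in the same direction as each other in every population, up in OCSC of 3 populations and down in OCSC of COV318-CTR.

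**Figure D5:**
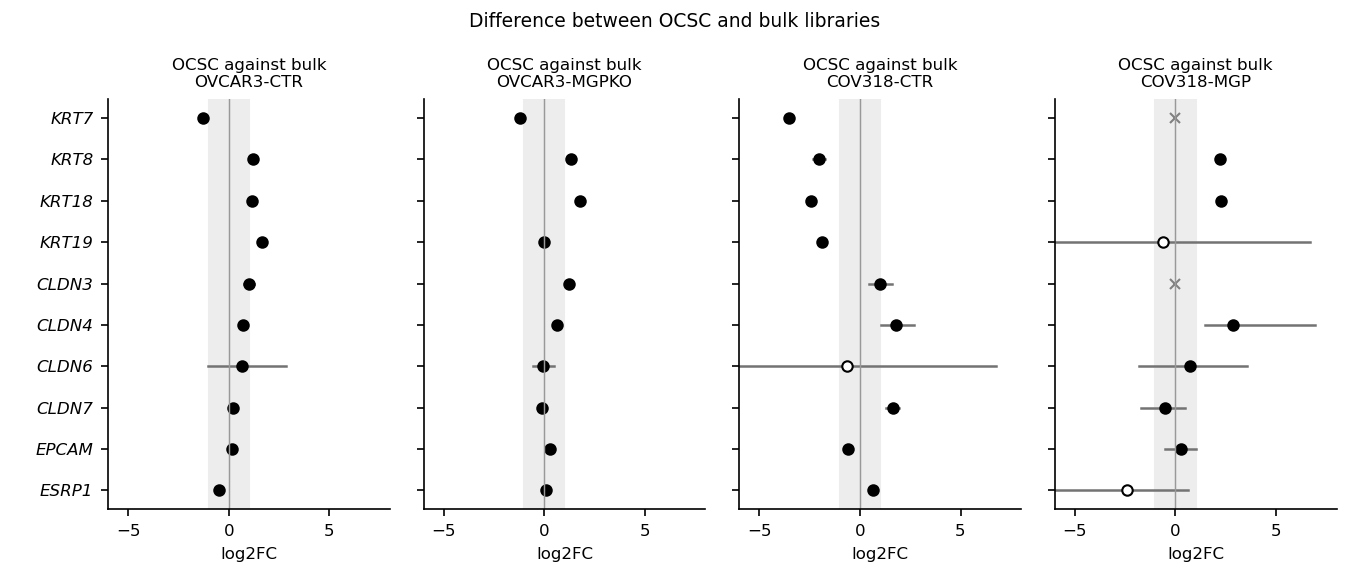
Points give the log2FC of OCSC against bulk in each population, lines the 95% counting interval (cut at the frame), open circles a gene with 0 counts in 1 library, crosses a gene with 0 counts in both, and grey the range under the threshold. KRT8 and KRT18 lie between 1.14 and 2.28 in 3 populations and at -2.03 and -2.45 in COV318-CTR.

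The control lines were set side by side to describe the starting levels. In bulk 8 of the 10 genes were lower in COV318-CTR than in OVCAR3-CTR (25.4% of all genes were) and 0 were higher (28.2% of all genes), CLDN6 among them on only 1 and 4 counts. CLDN4 was 311-fold lower (log2FC -8.18, interval -8.91 to -7.72), KRT8 64.9-fold, CLDN7 26.2-fold, ESRP1 19.7-fold and CLDN3 8.68-fold. KRT7 was 4.11-fold and EPCAM 3.43-fold lower, while KRT18 (1.76-fold lower) and KRT19 (1.56-fold lower) stayed under the threshold. In OCSC all 10 were lower (25.3% of all genes were) and 0 higher (29.4% of all genes). KRT8 was 600-fold lower (log2FC -9.22, interval -9.52 to -8.96), CLDN4 142-fold, KRT18 21.1-fold, KRT7 19.3-fold and KRT19 18.4-fold, and CLDN6, with 0 against 11 counts, at least 2.30-fold. The median log2FC of the 10 genes was -2.65 in bulk and -3.85 in OCSC, against 0.05 and 0.06 over all genes. These comparisons share the control libraries with those above, and the lines differ in passage and, in bulk, in medium as well as in origin.

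The genes with the most similar profile over the 8 libraries were sought among the 7308 other genes that reached 1000 normalized counts in at least 1 library. For EPCAM they were CCDC144NL-AS1 (Pearson r = 0.998 of log2 normalized counts), MBP (0.996), PLPP2 (0.995), C19orf33 (0.995) and EMX2 (0.995). For KRT8 they were FBXW5 (0.996), PFN1 (0.994), TADA3 (0.993), TIMM13 (0.992) and DDX54 (0.992). The 8 libraries come from 2 lines that differ strongly, so these values are a description and carry no p-value.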

How the data were processed

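RNA-seq libraries were made from 4 populations of OVCAR3 and COV318, each as bulk and OCSC culture, with 1 library per condition. The deposited counts per gene (20339 genes, 8 libraries) were made by the authors from reads aligned to hg38 with STAR 2.7.5c, per the submitters' processing notes. The version of the gene annotation and the use of strand in counting are not given in the sources used here. A second deposited table holds signal values, which are counts that the authors divided by DESeq2 size factors. They equalled the values computed here within 1e-05 for 20333 genes.

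Counts were divided by median-of-ratios size factors (15518 genes above 0 in every library). Differences were log2 ratios with a pseudocount of 1, called at a log2FC of at least 1 in size. For each ratio a 95% interval was taken from the exact binomial limits (Clopper-Pearson) of the share of one library in both counts. Counts up to 3 were taken as the floor, and "at least" marks a fold against that floor where a library had 0 counts. Levels per kb used GENCODE 44 exon lengths. No model was fitted and no test was run, because a condition had 1 library. Python 3.11.15, pandas 2.3.3, numpy 2.4.6, scipy 1.17.1 and matplotlib 3.10.9 were used, and edgeR 4.0.16 in R 4.3.3 gave TMM factors. The calculation of folds and intervals was tested on counts simulated with counting error only. That check took genes of higher mean level, so it did not cover folds on few counts.

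The genes and lists were chosen with earlier results of these data known. Genes named from the lists were the gene with the highest mean and up to 3 with the largest log2FC in COV318-MGP bulk among genes with at least 100 counts. Several of those from the lists of other cell types are given only through their list, and 1 is not reported here. The likeness search took genes of at least 1000 normalized counts in 1 library. Alternatives were other scalings (CPM, TMM, factors within each pair, the deposited values), pseudocounts, thresholds, count minimums and gene lengths.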

Additional observations from a re-analysis of the deposited data

Results flagged for a closer look

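KRT8 differed in direction between bulk and OCSC when COV318-MGP was set against COV318-CTR (log2FC -1.07 and 3.15). In the comparison of OCSC with bulk, KRT8 had log2FC values of 1.18 in OVCAR3-CTR, 1.34 in OVCAR3-MGPKO and 2.20 in COV318-MGP against -2.03 in COV318-CTR. KRT18 followed, at 1.14, 1.79 and 2.28 in the same populations against -2.45 in COV318-CTR. KRT19 was higher in OCSC of OVCAR3-CTR (1.67) and lower in OCSC of COV318-CTR (-1.89). What drew attention in each case was the opposite sign between populations or cultures. The differences between populations and cultures were not tested, since each value compares 1 library with 1 library, and the values of KRT8 share the libraries of COV318. The counts behind KRT8 in COV318 were 1197, 556, 106 and 983 in CTR bulk, MGP bulk, CTR OCSC and MGP OCSC.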

How the results depend on the processing

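Of 700 values of the 10 genes recomputed under 7 alternatives, 599 stayed within the counting interval or between it and the main value. Outside lay 101 (67 of them with CPM), and 0 called values reversed. The deposited values nearly equal the main ones and gave 100 of the 599. Genes at 0 counts in both libraries had no interval and could not fall outside. Counts of called genes that moved by over 1.5 times were these. In COV318-MGP against COV318-CTR bulk, the 1 gene called higher became 0 with CPM, pseudocounts of 5 and 10, thresholds of 1.5 and 2, minimums of 10 and 50 counts, and when the interval had to exclude no change. In OCSC the 2 higher became 1 with CPM, pseudocounts of 5 and 10, both count minimums and the interval. In OVCAR3-MGPKO against OVCAR3-CTR the 1 gene lower became 0 at thresholds of 1.5 and 2 in bulk, and in OCSC at those thresholds and with CPM. For OCSC against bulk in OVCAR3-CTR and in OVCAR3-MGPKO, the 3 higher became 1 at a threshold of 1.5 and 0 at 2, and the 1 lower became 0 at both. In COV318-CTR the 3 higher became 0 at a threshold of 2. In COV318-MGP the 1 lower became 0 with CPM, pseudocounts of 5 and 10, both count minimums and the interval, and 2 with a pseudocount of 0.5. For thresholds and minimums the stricter rule itself removes genes, and for the other settings the cause was not tested. Smaller moves also ended calls. In COV318-MGP bulk the 9 lower were 8 with TMM and at thresholds of 1.5 and 2 and 7 with CPM (KRT8 at -0.97 with TMM and -0.75 with CPM), and in OCSC of COV318-CTR the 3 higher were 2 with CPM and at a threshold of 1.5. With CPM the median log2FC of all genes in COV318-MGP bulk was 0.14, against -0.01. The canonical transcript length was chosen after seeing the data. No paired analysis was possible because the groups compared have 1 library each and share no more than 1 replicate number, and no replicate could be left out. A fit of culture with the 4 populations as blocks was not run. CLDN6 rests on at most 4 counts in each COV318 library.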

Other observations

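The balance of the keratin types, as the summed level of type I keratins over that of type II keratins per kb of exon, was 0.908 and 0.748 in OVCAR3-CTR and OVCAR3-MGPKO bulk and 1.95 and 1.84 in their OCSC libraries. It was 3.69 and 8.36 in COV318-CTR bulk and OCSC and 11.8 and 10.6 in COV318-MGP. Type I message was therefore in excess over type II message in every COV318 library. Per kb of the canonical transcript the ratio was 6.56 in COV318-CTR OCSC, and 6.34 and 6.19 in COV318-MGP bulk and OCSC, so that the order of COV318-CTR OCSC and COV318-MGP depends on the length used. KRT5, a basal keratin outside the simple epithelial set, made up 5.98% of the type II level in OVCAR3-CTR bulk, 24.6% in OVCAR3-MGPKO bulk, 12.7% in OVCAR3-CTR OCSC and 6.28% in OVCAR3-MGPKO OCSC, and at most 0.373% in COV318.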
